A study of Mus musculus with 6 samples.

Results

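Endothelial cells set the calibre of the vessel they line by releasing mediators that relax or contract its mural cells. The 10 genes described here make or steer 3 of these systems in cultured liver sinusoidal endothelium: nitric oxide (Nos3, Gch1, Ddah1, Ddah2 and Cav1), endothelin (Edn1, Ece1 and Ednrb) and the prostanoids (Ptgs1 and Ptgs2). They were taken by symbol, and all 10 were found among the 24421 symbols of the count files. All 10 also had enough reads for testing, as did 12892 genes in all.

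As background, endothelial nitric oxide synthase (NOS3) makes nitric oxide from arginine with the cofactor tetrahydrobiopterin. It is slowed by asymmetric dimethylarginine (ADMA) and by binding to caveolin 1. In the liver, nitric oxide from the sinusoidal endothelium keeps hepatic stellate cells relaxed, whereas endothelin-1 contracts them. Cyclooxygenases turn arachidonic acid into prostaglandin H2, the common precursor of the vasodilator prostacyclin and the vasoconstrictor thromboxane.

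The pressure group was primary mouse liver sinusoidal endothelial cells under periodic hydrostatic pressure, applied for 8 h at 0.01 Hz with a low of 101 and a high of 135 kPa (absolute values). The control group was the same kind of cells labelled as a control. Both groups had the genotype label wild, came from liver, were picked with CD146 beads, kept overnight on collagen I and starved of serum for 6 h at 37 °C in 5% CO2. Each group had 3 samples under a single batch label. Time and handling of the controls over those 8 h are not labelled, so they cannot be told apart from pressure. Whether a group's samples were separate cultures or animals is not labelled, and p-values cover no more than the sample-to-sample spread, which may be technical.

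Libraries held 12922959 to 17675569 counts under pressure and 13986286 to 18655749 in controls. Pressure sample 3 was the shallowest and stood apart, with correlations of log CPM of 0.987 and 0.989 to the other pressure samples, which correlated at 0.994. Endothelial markers were present, and their summed level was 5283 to 6356 CPM under pressure and 6972 to 7418 CPM in controls, with 1 of 12 called higher and 8 lower. Calls are defined below, and 33.7% of all genes tested were called higher and 35.1% lower. Macrophage markers were abundant too, at 5359 to 5819 CPM under pressure and 5617 to 6176 CPM in controls, with 2 of 10 called higher and 2 lower. Markers of stellate and smooth muscle cells summed to 169 to 189 CPM under pressure and 155 to 165 CPM in controls (12 genes, of which 9 were tested, 1 higher and 3 lower). Cnn1 was at 0 and Lrat and Myh11 were under 1 CPM in every library. The hepatocyte list stayed at 14.3 to 17.9 CPM under pressure and 7.41 to 10.4 CPM in controls (8 genes, of which 3 were tested, 2 higher and 0 lower). The platelet, lymphocyte and cholangiocyte lists stayed at or below 10.5 CPM in every library.

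Unless stated otherwise, a level is in CPM (counts relative to library size, with TMM factors). A change is the log2 fold change of pressure over control ± its standard error, from edgeR's quasi-likelihood test with Benjamini-Hochberg adjustment over all 12892 genes, and a gene is called at an adjusted p of 0.05. All 10 genes were called, 7 higher and 3 lower under pressure, where 68.8% of all genes tested were called (33.7% higher and 35.1% lower). With so many genes changed, being called sets these 10 little apart, so sizes and directions are given below. The 10 were chosen with earlier results of these data known, so larger sizes among them may reflect that choice. In TMM-scaled CPM, the pressure libraries of each of the 10 also lay wholly above or wholly below the control libraries. The same held for 71.9% of all genes tested. Of the 10, 5 changed at least 2-fold (23.3% of all genes tested were called and changed that much), and the median size of the change was 0.93 on the log2 scale, beside 0.54 over all genes tested.

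The vasodilator arm split. Its synthase Nos3 and the ADMA-clearing enzyme Ddah2 fell, while the cofactor enzyme Gch1 and the other ADMA-clearing enzyme Ddah1 rose (2 higher and 2 lower of 4). Cav1, the inhibitor of NOS3, rose. The vasoconstrictor arm split as well, since the ligand gene Edn1 rose and the gene of its converting enzyme, Ece1, fell. The 3 genes whose products serve either direction, Ednrb, Ptgs1 and Ptgs2, rose.

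**Figure D1:**
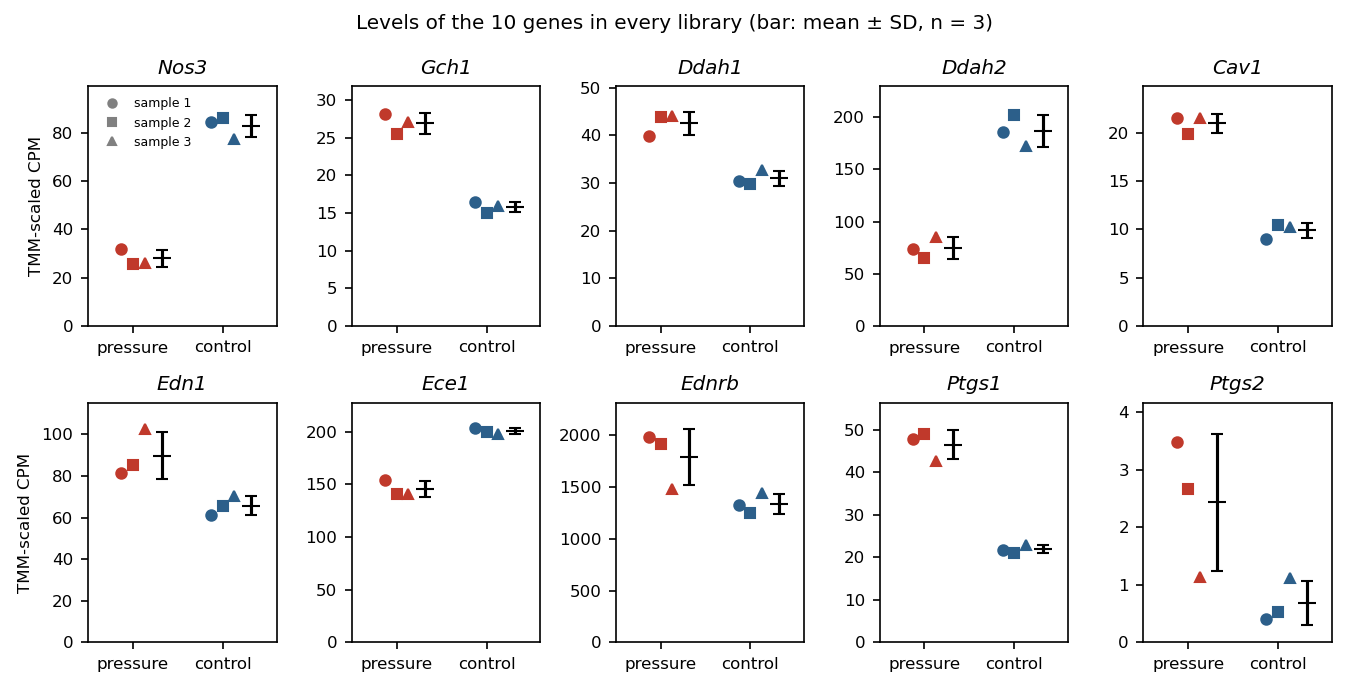
Level of each of the 10 genes (y axis, TMM-scaled CPM, from 0) in the 3 pressure (red) and 3 control (blue) libraries, with symbols for the sample number and black bars for mean ± SD. Nos3, Ddah2 and Ece1 lie lower under pressure and the other 7 genes higher, and the groups come closest for Ednrb and Ptgs2, where pressure sample 3 lies just above the highest control.

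3 coding stretches show where the products of the genes that moved meet: the mature peptide of Edn1, cut from its precursor by the Ece1 product, and the stretches of Nos3 and Cav1 that have been mapped as contact sites of synthase and caveolin. They were read from the GENCODE M21 transcripts of GRCm38, the build also named mm10, 5′ to 3′ on the plus strand. In Edn1 (exon 2, chr13:42303649-42303714, codons 53 to 74 of 202) capitals mark the last codon of the mature peptide and the codon after it, between which the converting enzyme cuts. In Nos3 (exon 8, chr5:24370106-24370132, codons 347 to 355 of 1202) and Cav1 (exon 3, chr6:17339161-17339220, codons 82 to 101 of 178) capitals mark the codons of aromatic residues.
Edn1: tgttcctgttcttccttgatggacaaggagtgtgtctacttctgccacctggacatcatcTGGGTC
Nos3: TTTcctgctgcccctTTCagcggcTGG
Cav1: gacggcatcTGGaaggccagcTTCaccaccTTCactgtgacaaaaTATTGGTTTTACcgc

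Nos3 (protein-coding, chr5:24364810-24384474, plus strand), the endothelial synthase, stood at 31.9, 25.8 and 26.0 CPM in the pressure libraries and at 84.4, 86.0 and 77.5 CPM in the control libraries. Every pressure library was far below every control. It fell by 1.56 ± 0.10 on the log2 scale (adjusted p = 5.58e-07), and 8.88% of all genes tested changed by more. In bulk RNA, fewer cells of a type and less RNA per cell cannot be told apart. Of 12 endothelial markers, 8 were called lower, as Nos3 was, and 1 higher over the same libraries. Over all genes tested, 35.1% were called lower and 33.7% higher. The marker called higher was Mcam, at 26.97 ± 4.13 CPM under pressure and 13.87 ± 0.885 CPM in controls (SD, n = 3; 0.965 ± 0.124, adjusted p = 5.49e-05). Kdr, the main receptor of vascular endothelial growth factor, was at 126 ± 2.89 CPM under pressure and 209.9 ± 10.1 CPM in controls (SD, n = 3; -0.73 ± 0.07, adjusted p = 8.11e-06). Tek, the angiopoietin receptor, was at 327 ± 15.4 CPM under pressure and 368 ± 7.77 CPM in controls (-0.17 ± 0.07, adjusted p = 0.0427). The scavenger receptor gene Stab2, a marker of sinusoidal endothelium, fell by 1.16 ± 0.08 on the log2 scale and its relative Stab1 by 0.71 ± 0.08. Of the 3 that were not called, Lyve1 changed by 0.17 ± 0.09 (adjusted p = 0.114), and the general endothelial gene Pecam1 stood at 1113, 1119 and 1053 CPM under pressure and 1141, 1108 and 1133 CPM in controls (-0.04 ± 0.06, adjusted p = 0.544). Cdh5, the endothelial cadherin, stood at 2401, 2307 and 1661 CPM under pressure and 1956, 1644 and 1891 CPM in controls (0.21 ± 0.13, adjusted p = 0.150). The part of these marker changes in the fall of Nos3 was not tested. Of the Nos3 exons, 1040 bases (25.2%) also belong to the antisense gene Gm15587 and 294 bases to Atg9b on the opposite strand. Atg9b had 18 to 58 counts a library, beside 318.5 to 1690 for Nos3, and the strand setting of the counting is not given in the sources used here.

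Gch1 (chr14:47153895-47189413, minus strand) encodes GTP cyclohydrolase 1, the first and rate-limiting enzyme of tetrahydrobiopterin synthesis. It stood at 28.2, 25.4 and 27.1 CPM under pressure and 16.4, 14.99 and 15.9 CPM in controls. Libraries of a group lay close together, and the change was 0.77 ± 0.10 (adjusted p = 4.22e-05). The cofactor gene thus moved against the synthase gene: within a library, the log2 ratio of Gch1 to Nos3 counts was -0.18, -0.02 and 0.06 under pressure and -2.36, -2.52 and -2.28 in controls. Such a ratio does not depend on how libraries are scaled, and its shift was 2.34 on the log2 scale.

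Both dimethylarginine dimethylaminohydrolases break down ADMA, and their genes moved apart. Ddah2 (chr17:35059035-35062095, plus strand), the form usually linked to NOS3-expressing tissue, stood at 74.2, 64.7 and 85.5 CPM under pressure and 186, 202 and 172 CPM in controls (-1.32 ± 0.11, adjusted p = 2.39e-06). Ddah1 (chr3:145758675-145894277, plus strand) stood at 39.8, 43.8 and 44.1 CPM under pressure and 30.4, 29.8 and 32.6 CPM in controls (0.46 ± 0.09, adjusted p = 8.58e-04). Groups did not overlap for either gene. Per kb of exon, Ddah2 remained the more abundant, at 46.95 ± 6.54 CPM per kb under pressure and 117 ± 9.40 in controls, beside 10.7 ± 0.610 and 7.77 ± 0.378 for Ddah1 (mean ± SD, n = 3). The log2 ratio of Ddah1 to Ddah2 counts was -0.90, -0.56 and -0.95 under pressure and -2.61, -2.76 and -2.40 in controls.

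Cav1 (chr6:17306335-17341452, plus strand), the coat protein of caveolae that holds NOS3 inactive, stood at 21.6, 19.9 and 21.5 CPM under pressure and 8.99, 10.5 and 10.2 CPM in controls. The pressure libraries were all well above the controls (1.09 ± 0.11, adjusted p = 8.38e-06). Set against the synthase whose contact stretch is printed above, the log2 ratio of Cav1 to Nos3 counts was -0.56, -0.38 and -0.28 under pressure and -3.23, -3.04 and -2.92 in controls. That shift, 2.65 on the log2 scale or 6.30-fold, was the largest of the 6 ratios computed.

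Edn1 (chr13:42301476-42307990, plus strand) encodes the precursor of endothelin-1, a peptide that contracts stellate and smooth muscle cells. It stood at 81.7, 85.1 and 102.8 CPM under pressure and 61.2, 65.5 and 70.6 CPM in controls (0.45 ± 0.10, adjusted p = 0.00252). Every pressure library was above every control in TMM-scaled CPM, by less than for Nos3 or Cav1, and pressure sample 3 was the highest. With library totals only, pressure sample 1 lay below control sample 3. Ece1 (chr4:137862237-137965229, plus strand), the membrane protease that cuts the precursor, stood at 154, 141 and 141 CPM under pressure (mean 145 ± 7.70) and between 198 and 204 CPM in the 3 controls (mean 201 ± 2.93; -0.47 ± 0.07, adjusted p = 1.98e-04). Ligand and converting enzyme therefore moved in opposite directions, and the log2 ratio of Edn1 to Ece1 counts was -0.92, -0.73 and -0.45 under pressure and -1.74, -1.61 and -1.49 in controls.

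Ednrb (chr14:103814625-103844402, minus strand) encodes the endothelin B receptor, which on endothelium clears endothelin-1 and signals to NOS3, and on mural cells can drive contraction. It stood at 1980, 1916 and 1481 CPM under pressure and 1325, 1249 and 1440 CPM in controls (0.42 ± 0.11, adjusted p = 0.00428). The groups were apart by a narrow margin, since pressure sample 3 lay just above control sample 3. With library totals only, pressure sample 3 lay below control samples 1 and 3. The change was 0.54 without pressure sample 3. Ednra, the contractile receptor of mural cells, was at 2.74 ± 0.372 CPM under pressure and 2.61 ± 0.495 CPM in controls (SD, n = 3; 0.08 ± 0.21, adjusted p = 0.760).

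Across the 2 arms, the log2 ratio of Edn1 to Nos3 counts was 1.36, 1.72 and 1.98 under pressure and -0.46, -0.39 and -0.13 in controls. Nos3 counts thus exceeded Edn1 counts in every control library, and Edn1 counts exceeded Nos3 counts in every pressure library. Counts also reflect exon length, which is 4.132 kb for Nos3 and 2.139 kb for Edn1. Per kb of exon, Edn1 was above Nos3 in every control library too (28.6 to 33.0 against 18.8 to 20.8 CPM per kb). The mean log2 ratio of counts was 1.68 ± 0.31 under pressure and -0.33 ± 0.17 in controls (SD, n = 3), a shift of 2.01 or 4.04-fold. It holds the fall of Nos3 and the smaller rise of Edn1 together. No test is given for these ratios, since the genes were chosen with earlier results known.

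**Figure D2:**
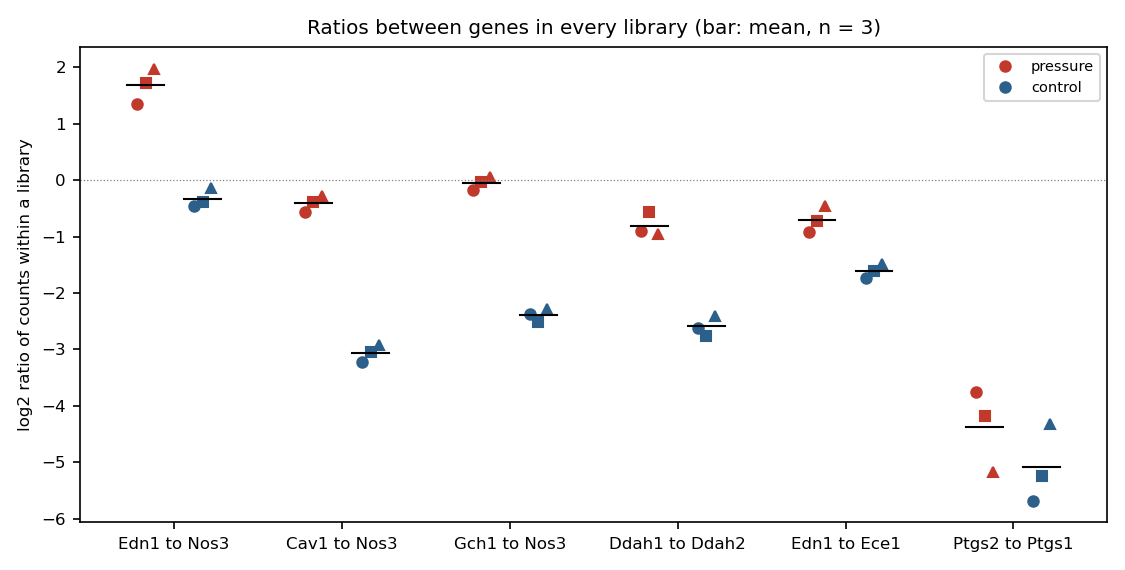
Log2 ratio of the counts of 2 genes within each library (y axis) for 6 pairs, in pressure (red) and control (blue) libraries; circles, squares and triangles are samples 1, 2 and 3, and black bars are means. Pressure libraries lie above control libraries for 5 pairs, and the groups overlap for Ptgs2 to Ptgs1. Heights of different pairs also reflect gene length and are not comparable.

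The cyclooxygenase genes rose at very different levels. Ptgs1 (chr2:36230426-36252272, plus strand), the constitutive form, stood at 47.7, 49.1 and 42.7 CPM under pressure and 21.8, 21.1 and 23.0 CPM in controls (1.09 ± 0.09, adjusted p = 3.17e-06). Groups were far apart. Macrophages, whose markers are given above, also carry Ptgs1, and their part in this result was not tested. Ptgs2 (chr1:150100031-150108227, plus strand), the inducible form, was close to the detection limit, with 56, 44 and 14 counts under pressure and 8, 10 and 17 in controls. In CPM it stood at 3.49, 2.67 and 1.15 under pressure and 0.400, 0.533 and 1.12 in controls (1.93 ± 0.45, adjusted p = 0.00286). Pressure sample 3 and control sample 3 were nearly level, so this change, although the largest of the 10, has the widest error. Without 1 library it lay between 1.59 (without pressure sample 1) and 2.41 (without control sample 3). The groups overlapped in the log2 ratio of Ptgs2 to Ptgs1 counts, which was -3.76, -4.18 and -5.17 under pressure and -5.68, -5.24 and -4.32 in controls.

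Upstream sequence is shown for these 2 genes, which rose together and make the same product. The 250 bases before the annotated start were taken from RefSeq on GRCm38.p6, plus strand (Ptgs1 chr2:36230176-36230425, Ptgs2 chr1:150099781-150100030). Capitals mark matches on either strand to any of 8 motifs, whose letters and shares among the upstream windows of all genes are given after the sequences.
Ptgs1: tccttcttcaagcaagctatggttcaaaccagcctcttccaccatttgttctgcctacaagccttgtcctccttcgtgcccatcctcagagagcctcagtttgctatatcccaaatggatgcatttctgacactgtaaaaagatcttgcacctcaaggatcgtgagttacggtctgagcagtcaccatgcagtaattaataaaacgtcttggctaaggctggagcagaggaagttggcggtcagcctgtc
Ptgs2: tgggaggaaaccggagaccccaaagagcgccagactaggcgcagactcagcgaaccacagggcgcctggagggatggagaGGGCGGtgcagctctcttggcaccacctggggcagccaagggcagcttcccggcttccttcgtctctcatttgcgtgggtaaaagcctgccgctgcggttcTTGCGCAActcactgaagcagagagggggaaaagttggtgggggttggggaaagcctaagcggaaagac

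The Ptgs2 window holds the C/EBP palindrome, 69 bases before the start, and a GC box, and the Ptgs1 window holds none of the 8. The palindrome was searched as TTGCGCAA, and 0.16% of 32851 such windows of all genes hold it. The GC box was searched as GGGCGG, which 32.7% of these windows hold. The other motifs searched were the TATA box, as TATAAA, held by 12.4% of windows, and the CCAAT box, by its own letters, held by 33.9%. The core of the cyclic AMP response element was searched as ACGTCA, with a share of 6.47%. The E-box was searched as CACGTG, with a share of 6.02%. The AP-1 site was searched as TGANTCA, with N for any base and a share of 6.75%. The GATA site was searched as AGATAA, with a share of 9.99%. RefSeq windows were found for 9 of the 10 genes, Nos3 being the one without. A match is a description of letters and not of a bound factor.

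Ordered by level per kb of exon, the 10 genes ran in pressure libraries as Ednrb (420 ± 63.6 CPM per kb), Ddah2 (46.95 ± 6.54), Edn1 (42.0 ± 5.29), Ece1 (27.4 ± 1.45), Ptgs1 (11.97 ± 0.869), Ddah1 (10.7 ± 0.610), Nos3 (6.76 ± 0.834), Cav1 (6.10 ± 0.280), Gch1 (4.30 ± 0.222) and Ptgs2 (0.532 ± 0.260). In control libraries the order was Ednrb (314 ± 22.5 CPM per kb), Ddah2 (117 ± 9.40), Ece1 (37.8 ± 0.553), Edn1 (30.8 ± 2.21), Nos3 (20.4, 20.8 and 18.8 by library), Ddah1 (7.77 ± 0.378), Ptgs1 (5.65 ± 0.251), Cav1 (2.87 ± 0.229), Gch1 (2.52 ± 0.114) and Ptgs2 (0.150 ± 0.0841; SD, n = 3). Ednrb was the most abundant and Ptgs2 the least in both groups. Nos3 ranked above Ddah1 and Ptgs1 in controls and below both under pressure. Neighbours whose library values overlapped were Ddah2 and Edn1, Ptgs1 and Ddah1, and Nos3 and Cav1 under pressure, and Cav1 and Gch1 in controls.

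**Figure D3:**
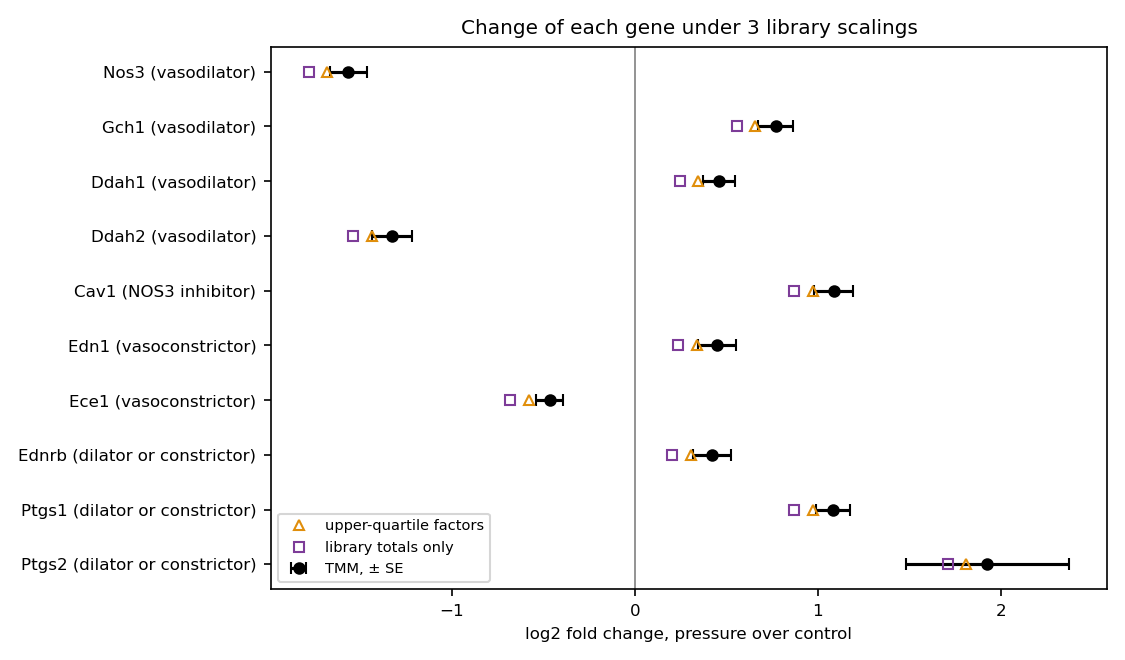
Log2 fold change of pressure over control (x axis) for the 10 genes (rows, with the arm in brackets), with TMM factors (black, ± SE), upper-quartile factors (orange triangles) and library totals only (purple squares). Every gene keeps its direction, and library totals move all 10 towards lower values by about the same amount.

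The choice of scaling bore on the smaller changes. With library totals only, the median change of all genes moved by -0.21 on the log2 scale and 34.7% of called genes were higher, against 49.0% with TMM factors. With upper-quartile factors the median moved by -0.11 and 41.2% of called genes were higher. All 10 genes kept their direction under these and under RLE factors. Edn1 and Ednrb were no longer called with library totals only (0.24, adjusted p = 0.072, and 0.21, adjusted p = 0.0838). Under that scaling the groups also overlapped for Edn1, Ednrb and Ptgs2. For Edn1, pressure sample 1 had 1311 of 17647444 counts in tested genes, and control sample 3 had 1069 of 13977746. Relative to the median of all genes, Edn1 was at 0.46 with TMM factors and 0.47 with library totals, and Ednrb at 0.44 and 0.43. Nos3 was at -1.55 relative to that median with either scaling.

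Around NOS3, other genes for nitric oxide synthesis and for substrate and cofactor supply moved both ways. Of 10 tested genes other than Nos3 and Gch1, 3 were higher and 4 lower (median change -0.02, beside -0.02 over all genes tested). Beside this and the list counts below, 33.7% of all genes tested were called higher and 35.1% lower. Nos2, the inducible synthase and named after its values were seen, was scarce. It rose to 2.38 ± 0.259 CPM under pressure, against 1.15 ± 0.275 CPM in controls (1.05 ± 0.24, adjusted p = 0.0029). Slc7a1, the main cationic amino acid transporter that brings arginine into the cell, rose to 545 ± 104.5 CPM under pressure, against 117 ± 10.7 CPM in controls (2.22 ± 0.14, adjusted p = 4.06e-07). Pts, the second enzyme of tetrahydrobiopterin synthesis after Gch1, fell to 6.34 ± 0.507 CPM under pressure, against 15.4 ± 1.15 CPM in controls (-1.27 ± 0.12). Arg2, a mitochondrial arginase that uses the same substrate as NOS3, rose by 0.90 ± 0.13. Tetrahydrobiopterin genes thus did not all follow Gch1: Qdpr, which regenerates the cofactor, and Spr, the last enzyme of its synthesis and named after its values were seen, also fell (-0.56 ± 0.10 and -0.26 ± 0.11, adjusted p = 6.12e-04 and 0.0477). The fall of Spr was not called with RLE factors, DESeq2, a threshold of 0.01 or the block on sample number, nor in 5 of the 6 fits that left out 1 library, the exception being the one without pressure sample 3.

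Among genes for partners of NOS3 and ADMA turnover, 7 rose and 3 fell of 12 tested genes besides Cav1, Ddah1 and Ddah2 (median 0.33; with library totals only, the whole list had 5 higher instead of 9). Prmt1, a methyltransferase whose products release ADMA when proteins are broken down, rose to 203 ± 21.7 CPM under pressure, against 109 ± 6.39 CPM in controls (0.90 ± 0.09, adjusted p = 1.10e-05). Of the 2 genes that clear ADMA, Ddah2 moved against Prmt1 (-1.32 ± 0.11) and Ddah1 moved with it (0.46 ± 0.09). Hsp90aa1, a chaperone that favours NOS3 activity, rose by 0.79 ± 0.11, while Dynll1, a dynein light chain first described as an inhibitor of neuronal NOS, and Calm3, 1 of 3 genes for calmodulin, fell (-0.89 ± 0.10 and -0.89 ± 0.11). Cav2, another caveolin gene and named after its values were seen, also fell, against the rise of Cav1. It stood at 11.98 ± 1.28 CPM under pressure and 21.8 ± 4.10 CPM in controls (-0.85 ± 0.15, adjusted p = 4.43e-04). Genes with near-identical copies, such as those for calmodulin, are uncertain in these counts.

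In the response to nitric oxide through cyclic GMP, 0 genes were called higher and 5 lower of 7 tested (median -0.69). Over all genes tested, 68.8% were called, 33.7% higher and 35.1% lower. Gucy1a3, the alpha subunit of the nitric oxide receptor guanylyl cyclase, stood at 2.42 ± 0.462 CPM under pressure and 4.18 ± 0.296 CPM in controls (-0.79 ± 0.19, adjusted p = 0.00353). Pde5a, which breaks down cyclic GMP, stood at 3.14 ± 0.828 CPM under pressure and 5.96 ± 0.231 CPM in controls (-0.90 ± 0.19). Mrvi1, a substrate of cyclic GMP-dependent kinase, fell by 0.69 ± 0.18 on the log2 scale, and Vasp, another such substrate that binds actin, by 0.37 ± 0.09. The fifth, Prkg1, named after its values were seen, encodes that kinase and stood at 5.70 ± 1.16 CPM under pressure and 7.73 ± 0.301 CPM in controls (-0.43 ± 0.16, adjusted p = 0.03), but was not called with DESeq2, at a threshold of 0.01, or without control sample 1, 2 or 3 or pressure sample 2. Gucy1b3, for the beta subunit of guanylyl cyclase, and Gucy1a2, both named after their values were seen, were not called. They changed by 0.15 ± 0.15 (adjusted p = 0.41) and -0.73 ± 0.40 (adjusted p = 0.13). Apart from Vasp these transcripts were scarce. Contractile cells carry several of them, and of 9 tested markers of stellate and smooth muscle cells 3 were called lower and 1 higher. Not called were Pdgfrb (0.01), Rgs5 (0.22), Lum (0.15), Col1a1 (0.31) and Reln (-0.295). Acta2, smooth muscle actin, was at 1.22 ± 0.222 CPM under pressure and 2.70 ± 0.292 CPM in controls (-1.16 ± 0.23, adjusted p = 9.37e-04). Des, desmin, changed by -1.24 ± 0.20 and Tagln, transgelin, by -0.49 ± 0.15 (adjusted p = 2.40e-04 and 0.0126). The higher sum of the stellate and smooth muscle list under pressure came from Dcn, decorin, at 132 ± 4.76 CPM under pressure and 104 ± 3.85 CPM in controls. The part of these cells in the result was not tested.

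Of the other endothelin genes, Ece2, a second converting enzyme, fell to 5.73 ± 1.63 CPM under pressure, against 15.7 ± 1.34 CPM in controls (-1.48 ± 0.18, adjusted p = 2.99e-05). Both converting enzyme genes were thus lower. Edn2, Edn3 and Mme were at or near 0 in every library and were not tested.

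Prostanoid synthesis genes other than the cyclooxygenases moved lower in 4 and higher in 1 of 8 tested (median -0.35). Pla2g4a, the cytosolic phospholipase A2 that frees arachidonic acid, fell to 9.05 ± 0.719 CPM under pressure, against 30.9 ± 1.33 CPM in controls (-1.77 ± 0.10, adjusted p = 3.29e-07). Pla2g6, a calcium-independent phospholipase A2, fell to 5.30 ± 0.656 CPM under pressure, against 20.9 ± 1.35 CPM in controls (-1.98 ± 0.13). These 2 phospholipase genes and the cyclooxygenase genes, whose products act one after the other, moved in opposite directions. Downstream, the thromboxane synthase gene Tbxas1 fell by 0.64 ± 0.10 and Hpgds, for a synthase of prostaglandin D2, rose by 0.51 ± 0.10. Macrophage markers were abundant in these libraries, as given above, and which cells carried these synthase transcripts was not tested. Ptgis, for the prostacyclin synthase and named after its values were seen, stood at 15.2 ± 1.501 CPM under pressure and 17.9 ± 1.63 CPM in controls (-0.23 ± 0.12, adjusted p = 0.0988), and was called lower with upper-quartile factors and with library totals only.

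Of genes for prostanoid transport, breakdown and reception, 2 rose and 5 fell of 11 tested (median -0.18). Among those that fell were 3 for prostaglandin metabolism: Hpgd, which inactivates prostaglandins, to 14.6 ± 0.666 CPM under pressure, against 42.8 ± 5.29 CPM in controls (-1.55 ± 0.11), Ptgr2, a reductase of the next step, by 1.90 ± 0.17 on the log2 scale, and the carbonyl reductase gene Cbr1 by 0.92 ± 0.10. Ptgdr2, a receptor of prostaglandin D2, rose to 6.19 ± 1.12 CPM under pressure, against 0.951 ± 0.153 CPM in controls (2.69 ± 0.22, adjusted p = 2.40e-06). Ptgds, for another synthase of prostaglandin D2, and Ptgdr, for its other receptor, were at 0 in every library. SDs in these accounts of other genes are over n = 3 per group.

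**Figure D4:**
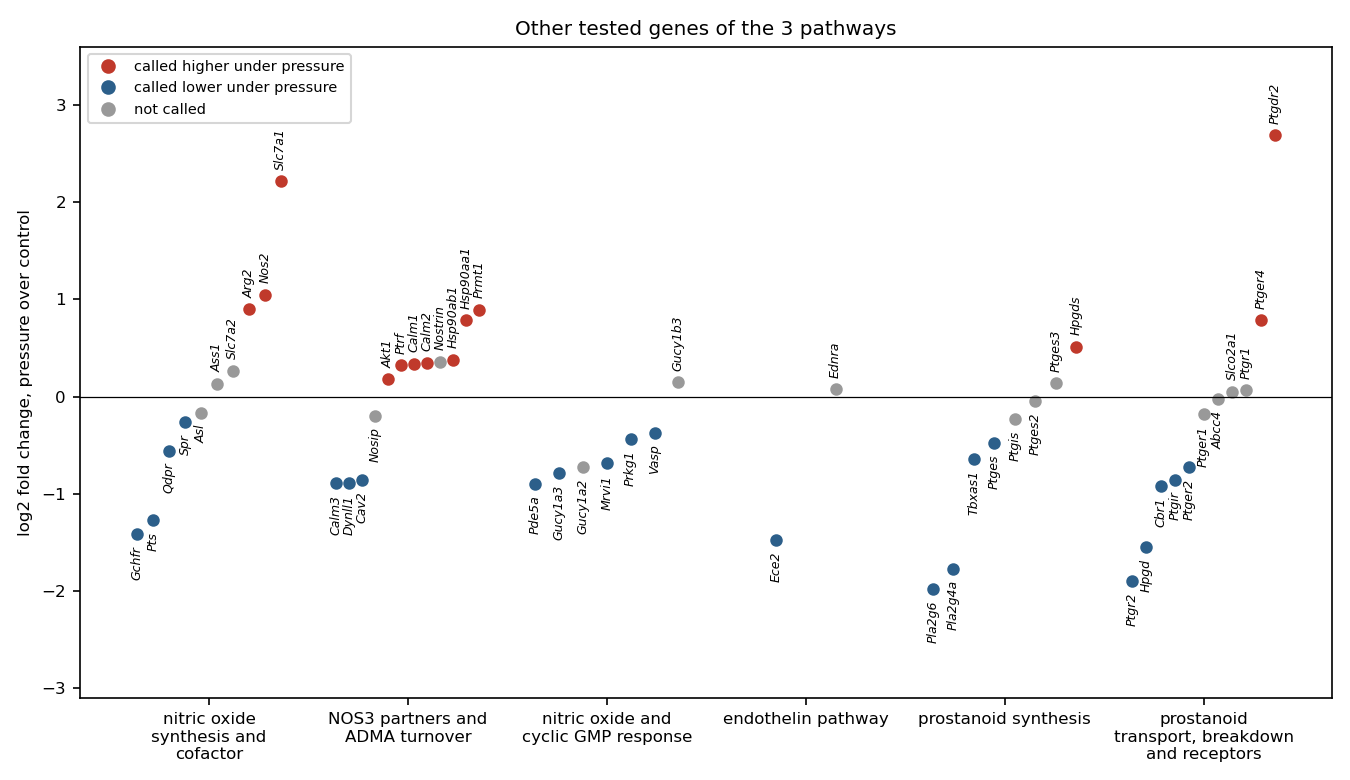
Log2 fold change of pressure over control (y axis) for the 50 tested genes of the 6 pathway lists other than the 10 main genes, each point 1 gene. Red points were called higher (13 genes), blue points lower (22 genes), and grey points were not called, and the cyclic GMP list holds no red point.

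By the smallest root mean square difference of centred log2 CPM over the 6 libraries, out of 9725 genes of at least 5 CPM, the genes most like Nos3 were Jak3 (difference 0.05), Xkr8 (0.05) and Vash1 (0.06). Vash1, vasohibin 1, stood at 25.7, 21.3 and 23.2 CPM under pressure and 68.3, 68.9 and 66.8 CPM in controls. Those most like Edn1 were F11r (0.04), Nt5dc1 (0.05) and Ndufa1 (0.05). F11r, a junctional adhesion molecule, stood at 178, 180.0 and 210.0 CPM under pressure and 135.5, 146.6 and 150.2 CPM in controls. Among the 10 genes themselves, Ddah1 and Edn1 were the most alike (0.09), followed by Cav1 and Ptgs1 (0.12).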

How the data were processed

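Expected counts by gene symbol, which can hold fractions, were deposited by the authors for each library, and 18.2% to 21.7% of detected genes had one. The mRNA kit was stranded and reads were single and 101 bases long, per the labels' protocols. TopHat2 2.2.1, Cufflinks 2.2.1 and mm10 are named, without their roles, per the submitters' processing notes; the counter, its strand setting and its annotation are not stated there or in the labels.

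Counts were rounded and filtered with filterByExpr (minimum count 10, total 15), leaving 12892 genes with 99.94% of counts. The main test was the two-sided quasi-likelihood F-test of edgeR 4.0.16 in R 4.3.3, with group as the only term and TMM factors of 0.909 to 1.083. Its p-values were adjusted by Benjamini-Hochberg across the 12892 genes, and 0.05 was the threshold. The standard error is the size of the log2 fold change divided by the square root of F. Alternatives were DESeq2 1.42.0, limma-voom (limma 3.58.1), library totals only, factors by RLE or upper quartile, other filters, a threshold of 0.01, the sample number as a block, and leaving out each sample. Ratios used a pseudocount of 0.5. No 2 libraries of a group agreed within sampling noise (chi-square per degree of freedom at least 3.05).

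The 10 genes, the lists and the tests were chosen with earlier results of these data known. Of each of 6 pathway lists, up to 4 called genes with the smallest p are named, beside 3 genes of most similar pattern for Nos3 and for Edn1. Clone and predicted symbols were left out of the latter. 1 gene was left out of the lists and is not reported here. Exon lengths and places are from GENCODE M21 (GRCm38), and upstream windows from RefSeq (GRCm38.p6).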

Additional observations from a re-analysis of the deposited data

How the results depend on the processing

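Over 15 alternatives, 8 of the 10 genes kept their call and direction in each one that tested them, and Edn1 and Ednrb kept their direction in all 15 and their call in 14. The exceptions came with library totals only (Edn1 0.24, Ednrb 0.21), a setting that lowers all genes together and left 0 genes of the endothelin list called higher instead of 2 and 5 of the list of NOS3 partners instead of 9. Ptgs2 was not tested with a minimum mean of 5 CPM, which by leaving out low genes also left 2 lower calls in the cyclic GMP list instead of 5 and 0 higher calls in the list of prostanoid transport, breakdown and receptors instead of 2. A threshold of 0.01 left 3 lower calls instead of 5 in the nitric oxide synthesis list and in the list of prostanoid transport, breakdown and receptors. Leaving out 1 library gave 3 to 5 lower calls in the nitric oxide synthesis list, with 3 each without control sample 2, pressure sample 1 or pressure sample 2, where Gchfr and Spr were lost. The number of genes called was 8871, and 9624 without pressure sample 3. With the sample number as a block 8384 genes were called and all 10 genes remained called. Same-numbered samples did not deviate together (correlations 0.13, -0.23 and -0.13 for samples 1, 2 and 3), so the numbers were not taken as pairs, and not every sample correlated best with its own number. The shift of the Edn1 to Nos3 ratio was 2.01 with a pseudocount of 1 and 1.87 to 2.18 with 1 library left out. The other 5 ratios, and leaving out libraries from any ratio, were added after seeing the data, and none of the 6 changed direction. Depth limits Ptgs2 most, at 8 to 56 counts a library.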
